A study of Mus musculus with 3 samples.

Results

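The genes described here encode ATP-dependent chromatin remodelers and their partner subunits: the BAF and PBAF complexes, NuRD, the other CHD proteins, INO80, and the ISWI, ATRX and related ATPases. They were chosen by symbol alone among genes with a protein-coding transcript, and 48 of 21901 such genes matched. They were read in 3 RNA-seq libraries of total RNA from F121-9, mouse embryonic stem (ES) cells that carry 1 genome of the Cast strain and 1 of the 129 strain. All 3 libraries are labelled as biological replicates at passage 14 made from 400 ng of RNA with spike-ins, and no treatment or altered gene is named. They form 1 group, so no conditions are compared. Tests between libraries measure only how far the 3 libraries lie apart, which may be technical. Other p-values compare paralogs, or different quantifications of the same reads, and concern no condition. F121-9 is a single line, and results from it stand for that line in this culture.

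A chromatin remodeler uses ATP to slide, evict or exchange nucleosomes, and each complex is built around a SNF2-type ATPase. BAF complexes open chromatin at enhancers and promoters, and NuRD couples an ATPase to histone deacetylases. INO80 carries the paired AAA+ ATPases Ruvbl1 and Ruvbl2. Many subunit positions can be filled by 1 of several paralogs. ES cells are known for a BAF form with its own set of paralogs, while neurons replace Actl6a by Actl6b. The members of the ES cell form are not listed here, and its match to the levels below was not tested.

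Levels are TPM, a value scaled to library size and corrected for transcript length, so that genes can be set side by side. They describe RNA, and neither protein nor the make-up of a complex was measured. Each library has a gene table with RSEM's columns and a transcript table with kallisto's columns, made from the same reads, and they are called RSEM-style and kallisto-style. Values are RSEM-style and given as mean ± SD over n = 3 libraries unless stated. Depth was 10610782, 9765384 and 10175403 estimated counts for replicates 1, 2 and 3 in the RSEM-style tables. All 10 ES cell markers on a list of such genes were expressed, their summed level running from 27043 to 29858 TPM, of which Dppa5a alone made up 90.8%. Of 10 fibroblast markers, which would mark feeder cells, 2 were expressed, 4 had no count (Col3a1, Dcn, Lum and Postn), and the sum of 56.4 to 65.1 TPM was mostly Fbln1 at 57.7 ± 4.53 TPM.

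Of the 48 genes, 45 were expressed, here meaning at least 1 TPM in every library, against 52.3% of all genes with a protein-coding transcript. Their median level was 28.7 ± 1.97 TPM, compared with 1.90 ± 0.0777 TPM over all protein-coding genes and 19.6 ± 0.712 TPM over the 11464 expressed ones. At the top of the list were 13 genes with a mean of at least 100 TPM, or 7 by the kallisto-style tables. The share of all genes at that level is not given here. The members together took 0.277% ± 0.00759 of all TPM. The median was 28.2 ± 2.67 TPM for the 20 BAF and PBAF genes, 53.9 ± 7.06 for the 10 NuRD genes, 9.93 ± 1.28 for the 6 other CHD genes, 52.2 ± 2.19 for the 7 INO80 genes and 55.5 ± 4.15 for the 5 ISWI and other genes. The NuRD and INO80 medians are medians over different genes and were not tested against each other.

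**Figure D1:**
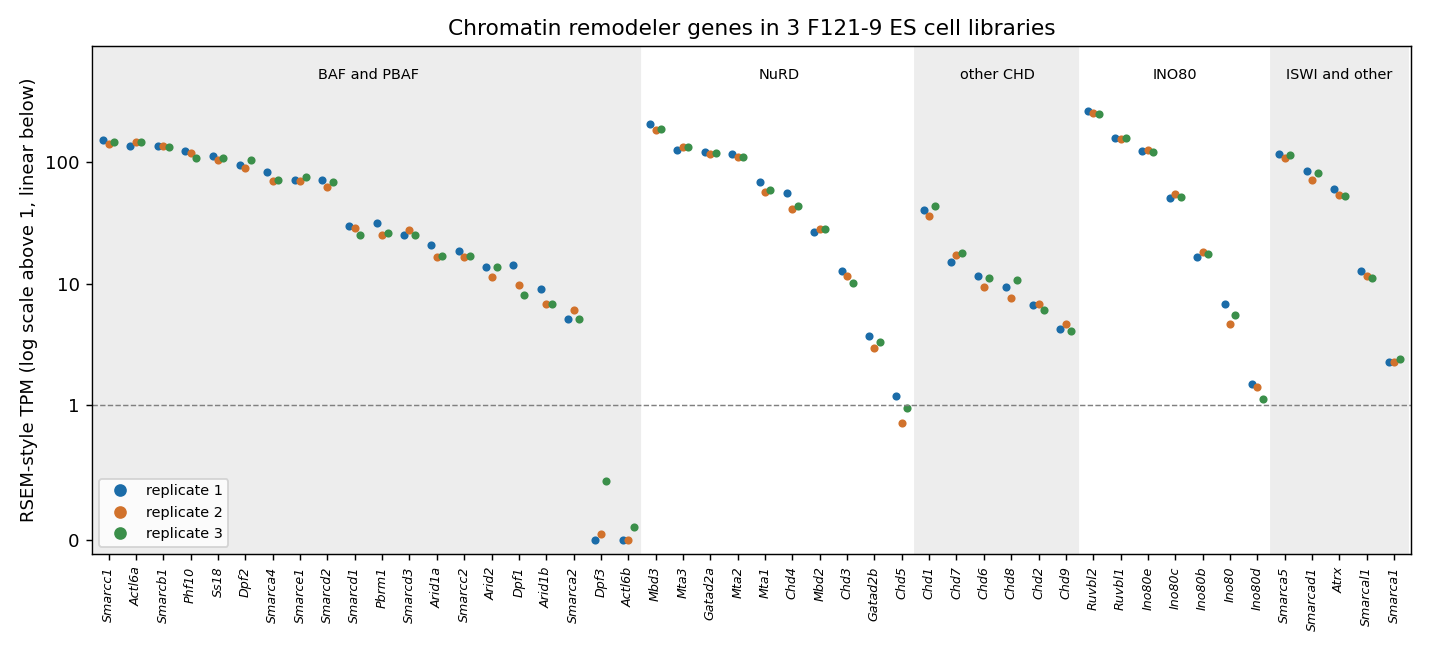
RSEM-style TPM of each of the 48 genes (log scale above 1, linear below), grouped by complex and ordered by mean, with 1 point for each of the 3 libraries. Actl6b and Dpf3 lie near 0, Chd5 straddles the dashed line at 1 TPM, and Ruvbl2 is at the top with 254 TPM.

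Several of these genes make messages that differ by a short coding stretch, and the stretches are shown first because later values refer to them. For each expressed member the 2 most abundant complete protein-coding transcripts were set against each other. In 13 members this gave 17 internal stretches of coding sequence present in 1 transcript and absent from the other, and all 17 had a length divisible by 3, which keeps the reading frame. The stretches below are read from the GENCODE M21 transcripts in the sense direction, with the alternative stretch in capitals and 15 coding bases on either side, or as many as the coding sequence has. They lie in coding exons on mm10.

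Smarcb1: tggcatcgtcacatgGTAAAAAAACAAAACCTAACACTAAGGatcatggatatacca
Dpf2: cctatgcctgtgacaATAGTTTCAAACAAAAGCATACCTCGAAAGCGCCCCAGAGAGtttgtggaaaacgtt
Pbrm1: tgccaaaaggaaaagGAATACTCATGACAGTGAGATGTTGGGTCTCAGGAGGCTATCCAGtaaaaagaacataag
Chd4 first: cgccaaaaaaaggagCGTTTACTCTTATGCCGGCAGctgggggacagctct
Chd4 second: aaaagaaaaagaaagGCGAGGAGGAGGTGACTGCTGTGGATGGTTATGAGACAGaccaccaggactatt
Mta1 first: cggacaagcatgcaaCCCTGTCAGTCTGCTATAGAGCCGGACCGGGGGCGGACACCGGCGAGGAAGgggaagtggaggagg
Mta1 second: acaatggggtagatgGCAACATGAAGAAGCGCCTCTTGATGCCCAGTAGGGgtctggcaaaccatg
Mbd3: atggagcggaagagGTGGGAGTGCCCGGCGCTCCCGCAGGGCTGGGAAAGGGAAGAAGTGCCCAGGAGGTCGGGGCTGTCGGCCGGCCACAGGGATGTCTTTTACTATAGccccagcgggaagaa

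The Smarcb1 stretch is 27 bases at chr10:75916773-75916799 on the minus strand, and the Dpf2 stretch is 42 bases at chr19:5903731-5903772, also minus. Pbrm1 has 45 bases at chr14:31056236-31056280 on the plus strand. Chd4 has 21 bases at chr6:125100778-125100798 and 39 bases at chr6:125102432-125102470, both on the plus strand. Mta1 has 51 bases at chr12:113120211-113120261 and 36 bases at chr12:113133541-113133576, both plus. The Mbd3 stretch is 96 bases at chr10:80399122-80399217 on the minus strand. It begins at base 15 of the coding sequence and so encodes residues near the amino terminus, where Mbd3 carries its methyl-CpG-binding domain.

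The RNA for the paralog pairs in the catalytic core of BAF came mostly from a single gene of each pair. Smarca4, the ATPase also called BRG1, stood at 82.2, 69.3 and 70.9 TPM in replicates 1, 2 and 3, and its paralog Smarca2 (BRM) at 5.07, 6.11 and 5.09 TPM. The ranges did not come near each other, and Smarca4 made up 93.1% ± 1.16 of the pair. Smarcc1, a scaffold subunit, stood at 152, 141 and 145 TPM against 18.5, 16.5 and 17.0 TPM for Smarcc2, a share of 89.4% ± 0.193. Smarcb1, the subunit that contacts the nucleosome face, has no paralog and was among the steadiest members at 135, 136 and 134 TPM. Smarce1, an HMG-box subunit, stood at 72.1 ± 2.38 TPM, and Ss18 at 108 ± 3.38 TPM.

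RNA for the BAF60 position came from several paralogs. Smarcd2 led with 70.8, 62.3 and 68.0 TPM, ahead of Smarcd1 with 29.9, 28.8 and 25.1 TPM and Smarcd3 with 25.3, 27.6 and 24.9 TPM. Smarcd2 was above both in every library with 55.4% ± 2.65 of the set, whereas Smarcd1 and Smarcd3 overlapped. In the kallisto-style tables Smarcd1 and Smarcd3 did not overlap, at 29.1, 25.2 and 24.2 TPM and 22.3, 19.0 and 19.3 TPM.

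The ARID subunits, which define the BAF and PBAF classes, were all of modest level. Arid1a stood at 20.7, 16.7 and 16.8 TPM and Arid2, the PBAF subunit, at 13.8, 11.3 and 13.8 TPM. Arid1b, the alternative to Arid1a, stood at 8.97, 6.78 and 6.75 TPM. The 3 genes did not overlap and took 46.9% ± 1.63, 33.7% ± 2.82 and 19.4% ± 1.30 of the set. Pbrm1, the bromodomain subunit of PBAF, stood at 27.5 ± 3.68 TPM.

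At the BAF45 position, held by PHD-finger proteins, the PBAF subunit Phf10 and the BAF subunit Dpf2 were the abundant genes. Phf10 stood at 122, 119 and 108 TPM and Dpf2 at 94.9, 88.9 and 104 TPM, so their ranges were next to each other without overlapping. Dpf1 was far lower at 14.2, 9.68 and 8.11 TPM, and its CV of 29.7% was the largest of any expressed member. Its counts of 132, 137 and 108 did not follow the TPM and were highest in replicate 2. Dpf3 had 0, 1 and 3 counts.

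RNA for the BAF53 position came almost wholly from 1 paralog. Actl6a, an actin-related subunit, stood at 134, 146 and 146 TPM, and Actl6b, its counterpart in neurons, had 0, 0 and 1 count. A count of 0 allows up to 3 counts, which is 0.288 and 0.313 CPM (counts over library size) in replicates 1 and 2 and covers counting error only. In bulk RNA a low level in all cells and a higher one in few cells cannot be told apart. Of 8 neuron and neural progenitor markers 3 were expressed, and their sum ran from 18.3 to 23.0 TPM.

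In NuRD, Chd4 was the leading ATPase at 55.2, 40.7 and 43.8 TPM, with Chd3 at 12.8, 11.5 and 10.02 TPM and Chd5 at 1.19, 0.87 and 0.98 TPM. Chd4 took 78.8% ± 1.80 of the set. Counting protein-coding transcripts alone raised its share to 89.1% ± 2.12, and 57.1% of Chd3 TPM came from transcripts not typed as protein-coding. Mbd3, the NuRD subunit that has largely lost binding to methylated CpG, was the most abundant NuRD gene of the list at 204, 183 and 186 TPM. Mbd2, which binds methylated CpG, stood at 26.7, 28.2 and 28.0 TPM, giving Mbd3 a share of 87.3% ± 0.974.

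All 3 MTA scaffold genes were expressed at similar order of level. Mta3 stood at 125, 134 and 132 TPM, Mta2 at 116, 110 and 110 TPM and Mta1 at 68.8, 56.9 and 58.3 TPM. Mta3 was above Mta2 in each library by a ratio of means of 1.17, without overlap, and the shares were 43.0% ± 2.25, 36.8% ± 0.475 and 20.2% ± 1.78. The zinc-finger subunit Gatad2a stood at 121, 116 and 119 TPM and its paralog Gatad2b at 3.73, 2.95 and 3.32 TPM, a share of 97.3% ± 0.251 for Gatad2a.

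Among the other CHD genes Chd1, which binds methylated histone H3 lysine 4 and is known for its role in ES cells, was the highest at 40.5, 35.7 and 43.4 TPM. Chd2, of the same subfamily, stood at 6.71, 6.74 and 6.01 TPM, so that Chd1 took 85.9% ± 1.86 of the pair. In the Chd6 to Chd9 subfamily Chd7 led with 15.1, 17.3 and 17.7 TPM, followed by Chd6 with 11.5, 9.31 and 11.1 TPM, Chd8 with 9.34, 7.63 and 10.7 TPM and Chd9 with 4.27, 4.65 and 4.05 TPM. Chd6 and Chd8 overlapped. The order did not hold in the kallisto-style tables, where Chd8 was first.

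The paired ATPases of INO80 were the most abundant of the 48 genes together with Mbd3. Ruvbl2 stood at 262, 254 and 247 TPM and Ruvbl1 at 157, 156 and 159 TPM, a ratio of means of 1.62, although both proteins are also shared by other complexes. Ino80, the ATPase that names the complex, was far lower at 6.80, 4.63 and 5.55 TPM. Its smaller subunits ranged from Ino80e at 123 ± 1.70 TPM through Ino80c at 52.2 ± 2.19 and Ino80b at 17.4 ± 0.882 TPM to Ino80d at 1.35 ± 0.195 TPM.

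Smarca5, the ISWI ATPase also called SNF2H, stood at 115, 109 and 113 TPM, compared with 2.28, 2.26 and 2.42 TPM for Smarca1 (SNF2L), which is known from neural tissue. Smarca5 took 98.0% ± 0.0772 of the pair. Smarcad1, a remodeler linked to heterochromatin, stood at 78.9 ± 6.41 TPM, and Atrx, which deposits histone H3.3 with Daxx, at 60.3, 53.4 and 52.7 TPM. Smarcal1, a fork-remodeling enzyme, stood at 11.8 ± 0.813 TPM.

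**Figure D2:**
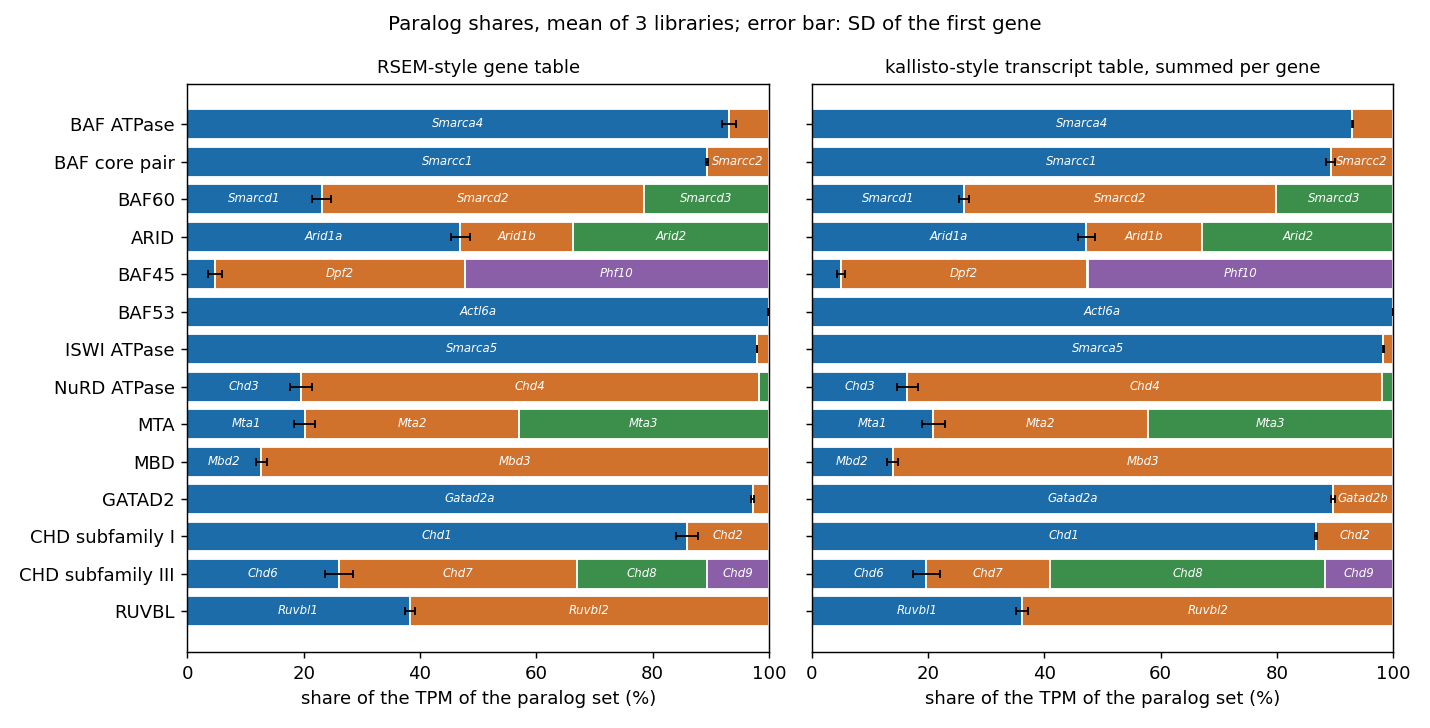
Share of each paralog in the TPM of its set (%), mean of 3 libraries, from the RSEM-style gene table (left) and the kallisto-style table summed per gene (right); error bars are the SD of the first gene of the set. The leading gene is the same in both for 13 of 14 sets, the exception being the Chd6 to Chd9 set, where Chd8 took 22.4% on the left and 47.2% on the right.

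Over the 14 sets, 22 pairs of neighbours in level were compared on log2(TPM + 1) with a sign-flip permutation test, exact and two-sided. The smallest p that 3 libraries allow is an exact 0.25, so no pair can reach 0.05 before or after adjustment. The pairs were ordered by their RSEM-style means, so the order in those tables is a description, and in them 2 pairs overlapped, Smarcd1 with Smarcd3 and Chd6 with Chd8. In the kallisto-style tables, which did not set the order, Chd7 was above Chd6 in 2 of 3 libraries and Chd6 above Chd8 in 0 of 3. In the other pairs the upper gene was higher in 3 of 3 libraries.

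Partner subunits of these complexes, genes of SRCAP and TIP60 and other SNF2-type ATPases made up a list of 58 symbols. Of these, 56 were matched and 54 of the 56 were expressed. The most abundant by RSEM-style TPM were Actb, an actin subunit of BAF and INO80 and a cytoskeletal gene, at 478 ± 55.6 TPM, the NuRD histone chaperone Rbbp7 at 329 ± 9.65 TPM and the INO80-associated deubiquitinase Uchl5 at 193 ± 18.5 TPM. In the kallisto-style tables Uchl5 was the highest at 760 ± 6.39 TPM, above Actb at 404 ± 62.8 and Rbbp7 at 266 ± 4.31 TPM. The 2 not expressed were Bcl11a at 0.140 ± 0.0693 TPM and Bcl11b at 0.307 ± 0.0896 TPM, zinc-finger factors that join BAF in lymphoid and neural cells. All 7 NuRD partners were expressed, with a median of 142 ± 1.87 TPM.

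The libraries differed in some members by more than counting noise. A chi-square test of the counts against Poisson expectation (2 degrees of freedom) with Benjamini-Hochberg adjustment over 13391 genes called 13 of the 46 members tested, beside 12.4% of all genes. Of the 13, 9 were highest in replicate 1, beside 815 of the 1656 called over all genes (6.09% of those tested). Atrx was at 263, 220 and 219 CPM (TMM-scaled), Chd4 at 230, 185 and 199 CPM and Chd8 at 44.8, 32.3 and 32.1 CPM in replicates 1, 2 and 3. In all 3 genes replicate 1 stood above the other libraries, by 1.20-fold, 1.20-fold and 1.39-fold over their geometric mean. Smarca4 (1.11-fold), Pbrm1 (1.18-fold), Arid1a (1.18-fold), Ino80 (1.28-fold), Mta1 (1.13-fold) and Smarcc1 (1.06-fold) were also highest in replicate 1. Actl6a, Dpf2, Smarce1 and Mta3 were lowest in it, with ratios of 0.894, 0.908, 0.884 and 0.901.

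Without replicate 1, the chi-square test called 0 of 46 members and 0.2% of all genes, and 5 members had an unadjusted p under 0.05. Without replicate 2 or replicate 3 it called 11 members each. The edgeR quasi-likelihood test, which sets each gene's spread against that of genes of like abundance, called 0 of 46 members, beside 0.0373% of all genes. Its lowest adjusted p among members was 0.848, 4 members had an unadjusted p under 0.05, and limma-voom also called 0.

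The ratio of replicate 1 to the others moved with length. The main transcripts of the tested members had a median length of 4666 bases, against 2672 over protein-coding genes. Of the 18 members with a main transcript of 6000 bases or more, 18 were higher in replicate 1 than in the mean of the others, with a median log2 ratio of 0.21, beside 0.12 for the 1096 protein-coding genes of that length. Of the 10 members under 2000 bases, 2 were higher, and the median log2 ratio was -0.06, beside -0.07 for 4090 genes. Of the 18 members of 6000 bases or more 6 were called beyond counting noise, beside 20.4% of protein-coding genes of that length. Below 2000 bases 1 of 10 members was called, beside 13.3%. From 2000 to 4000 bases 4 of 12 were called, beside 10.3%, and from 4000 to 6000 bases 2 of 6, beside 14.5%. From 2000 bases up, the share of members called thus did not rise with length. The part of length in the calls was not tested.

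**Figure D3:**
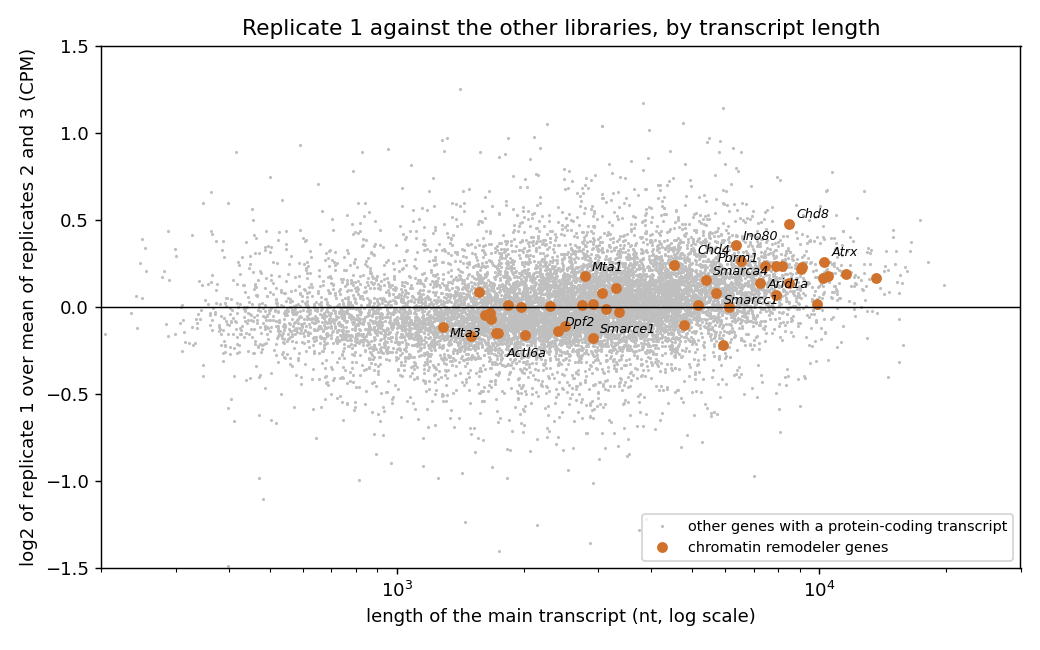
log2 ratio of replicate 1 over the geometric mean of replicates 2 and 3 (TMM-scaled CPM) against the length of the main transcript (nt, log scale) for 46 members (orange) and other genes with a protein-coding transcript (grey). Names mark the 13 members called beyond counting noise, and all members of 6000 nt or more lie above 0; grey points beyond the y axis limits are not drawn.

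TPM and counts did not always rank the libraries alike. Chd8 had 470, 307 and 318 counts, highest in replicate 1, but its TPM was highest in replicate 3 at 10.7, and TPM by its definition also depends on which transcripts the reads were assigned to.

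The main transcript of the leading gene of each set carried, as a share of that gene's RSEM-style TPM, 96.4% for Actl6a-201, 97.8% for Smarcd2-201, 99.0% for Smarca5-201, 94.4% for Arid1a-205 and 92.8% for Ruvbl2-201. It carried 84.4% for Phf10-201, 81.0% for Chd1-201, 72.1% for Smarcc1-201, 72.1% for Gatad2a-202 and 68.5% for Mta3-203. Lower shares were found for Chd4-202 at 48.9%, Chd7-202 at 43.1%, Smarca4-204 at 42.4% and Mbd3-204 at 42.2%. By the kallisto-style tables Smarca4-204 carried 74.4% and Smarca5-201 72.2%.

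Transcripts not typed as protein-coding, such as retained introns and targets of nonsense-mediated decay, supplied a median of 2.47% of a member's TPM, against 2.93% over expressed protein-coding genes. Of 45 expressed members, 6 had over 25% in such transcripts, compared with 17.5% of expressed protein-coding genes. By kallisto-style TPM 11 members had over 25%, compared with 21% of expressed protein-coding genes, and Gatad2b at 77.7% ± 2.91 and Chd8 at 74.6% ± 3.71 were the highest. The RSEM-style values follow. The highest of them was Chd3 at 57.1% ± 6.14 (49.7% ± 2.25 by the kallisto-style tables). Its retained-intron transcripts Chd3-203 and Chd3-205 led with 2.77 ± 0.187 and 2.37 ± 0.324 TPM, beside 3.26 ± 0.369 TPM for the coding Chd3-202. In Chd2, at 48.6% ± 16.3, Chd2-212, a decay target, stood at 2.43 ± 0.867 TPM beside 2.44 ± 0.645 TPM for the coding Chd2-203. Smarce1, at 46.2% ± 2.50, had 16.4 ± 2.55 TPM in Smarce1-206 and 14.1 ± 3.37 TPM in Smarce1-205, both short processed transcripts. Smarca2 followed at 37.2% ± 28.2, Dpf2 at 32.1% ± 7.22 and Smarcd3 at 29.3% ± 4.72. The Smarca2 value rests on 331 counts over all libraries, and its spread leaves its rank unsettled. In Dpf2 most of the share was the decay target Dpf2-201. It stood at 24.3 ± 4.48 TPM in the RSEM-style tables and 9.80 ± 1.42 TPM in the kallisto-style ones.

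The coding stretches printed above were used to different degrees. Each value is the share of TPM from transcripts holding the stretch among those that span its position and hold it whole or not at all. The Smarcb1 stretch was in 25.5%, 28.0% and 27.8% of the RSEM-style TPM, and in 29.0% ± 2.68 by the kallisto-style tables. The Mbd3 stretch was in 29.0%, 26.4% and 22.5%, and in 27.5% ± 1.32 by the kallisto-style tables. Among the transcripts that this share counts, the shorter form was the more abundant in every library. By transcript, Mbd3-204, which lacks the stretch, stood at 83.0, 77.4 and 81.2 TPM and Mbd3-201, which has it, at 38.0, 29.5 and 26.1 TPM. The protein-coding Mbd3-206, at 59.8, 60.7 and 61.6 TPM, is not in that share, so the split over the whole gene is not settled. The Pbrm1 stretch was in 13.8% ± 1.23, and a second Pbrm1 stretch of 165 bases in 14.3% ± 1.60.

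The first Chd4 stretch was in 49.7%, 52.7% and 59.8% of the RSEM-style TPM and in 41.0%, 47.5% and 46.1% of the kallisto-style TPM, with no overlap. The second was in 57.3%, 60.7% and 72.2% and in 62.8%, 68.5% and 80.5%, which overlap. The first Mta1 stretch was in 70.1% ± 1.77 and the second in 31.1% ± 1.40. For Dpf2 the tables gave unlike values, 42.4%, 45.6% and 30.6% from the RSEM-style and 55.9%, 59.3% and 51.3% from the kallisto-style tables, with no overlap. Ino80e did not overlap either, with 73.1% ± 1.65 against 61.9% ± 2.37 for a stretch of 117 bases. For Dpf2, the transcripts counted as lacking the stretch included the decay target Dpf2-201, at 24.3 ± 4.48 TPM in the RSEM-style and 9.80 ± 1.42 TPM in the kallisto-style tables. Of 13 stretches of at least 12 bases, 6 gave no overlap between the tables. The other such stretches were the 45-base one of Pbrm1 (16.4% ± 0.940 by the kallisto-style tables), the first of Chd4, the second of Mta1 (34.0% ± 1.37) and a 93-base one of Ss18 (18.1% ± 1.42 against 19.9% ± 0.587).

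**Figure D4:**
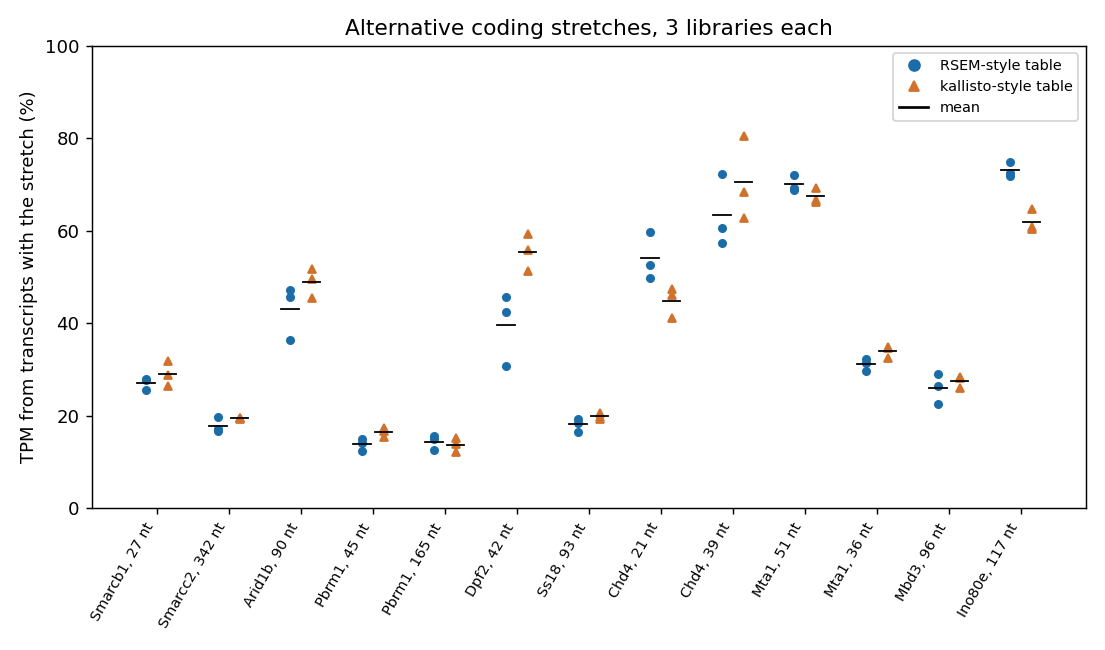
Share of TPM (%) from transcripts that hold each alternative coding stretch of at least 12 bases, with 1 point per library for the RSEM-style (circles) and kallisto-style tables (triangles) and a line at the mean of 3. The 45-base Pbrm1 stretch has an RSEM-style mean of 13.8%, the 51-base Mta1 stretch one of 70.1%, and the widest gaps between the means of the tables are those of Dpf2 and Ino80e.

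Transcript levels from the 2 tables were compared within each library by limma on log2(TPM + 1), and a transcript was called where the adjusted p was under 0.05 and the tables differed by 1 or more on average. Of 131 member transcripts 24 were called, in 15 genes, beside 18.9% of all 28903 transcripts tested. Of the 24, 16 were higher in the kallisto-style tables and 8 in the RSEM-style ones. Over all transcripts 5450 were called. Of these, 3490 were higher in the kallisto-style and 1960 in the RSEM-style tables (12.1% and 6.78% of those tested). Among the 21 retained-intron transcripts of members 9 were called, beside 27% of all such transcripts. Each of the 9 was higher in the kallisto-style tables, beside 700 of the 1056 retained-intron transcripts called over all genes (17.9% of those tested). Among the 97 protein-coding transcripts 12 were called, beside 10.3% of all. Of the 12, 5 were higher in the kallisto-style tables, beside 938 of the 1889 called over all genes (5.12% of those tested). The median difference over member transcripts was -0.26 on the log2 scale, beside -0.23 over all.

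The largest excess in the kallisto-style tables was Mta1-203, at 22.9, 22.4 and 27.3 TPM and listed at 0 in every RSEM-style library (difference 4.65, SE 0.0846, limma adjusted p = 0.000355). Its counterpart Mta1-205, of 2789 bases beside 2790, held 46.0, 39.0 and 40.7 TPM in the RSEM-style tables and 7.38 ± 5.47 in the kallisto-style ones. Mta1 as a gene was at 61.3 ± 6.52 and 48.7 ± 7.75 TPM, so the tables divided the gene between these transcripts in opposite ways. Smarca5-202, a retained-intron transcript, followed with 25.9 ± 1.52 against 0.543 ± 0.941 TPM. Chd8-210, a retained-intron transcript of 428 bases, was at 18.6, 13.8 and 16.3 TPM and listed at 0 in every RSEM-style library. Gatad2a-206 was at 10.1 ± 1.74 against 0.177 ± 0.306 TPM, and Gatad2b-207, with a retained intron, at 8.42 ± 0.359 against 0.470 ± 0.0954 TPM.

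In the other direction Smarca4-201 was at 12.6, 19.0 and 11.9 TPM in the RSEM-style and 1.35 ± 0.361 TPM in the kallisto-style tables (log2 difference -2.70, SE 0.133, limma adjusted p = 0.00159). Mta1-205, Ss18-210 (4.35 ± 1.40 TPM against a listed 0), Mta3-206 (2.60 ± 0.665 against 0.278 ± 0.273 TPM) and Ino80b-201 (7.57 ± 1.27 against 2.61 ± 1.13 TPM) came next. Smarca4-202 and Smarca4-204, the pair compared for coding stretches, differ inside the coding sequence by stretches of 9 and 3 bases. Their full lengths are 6376 and 5405 bases, and Smarca4-201 was not in that pair. The share with the 9-base stretch was 37.8% ± 2.36 by the RSEM-style and 23.1% ± 1.43 by the kallisto-style tables. For the 3-base stretch it was 57.2% ± 3.98 and 24.3% ± 0.901.

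**Figure D5:**
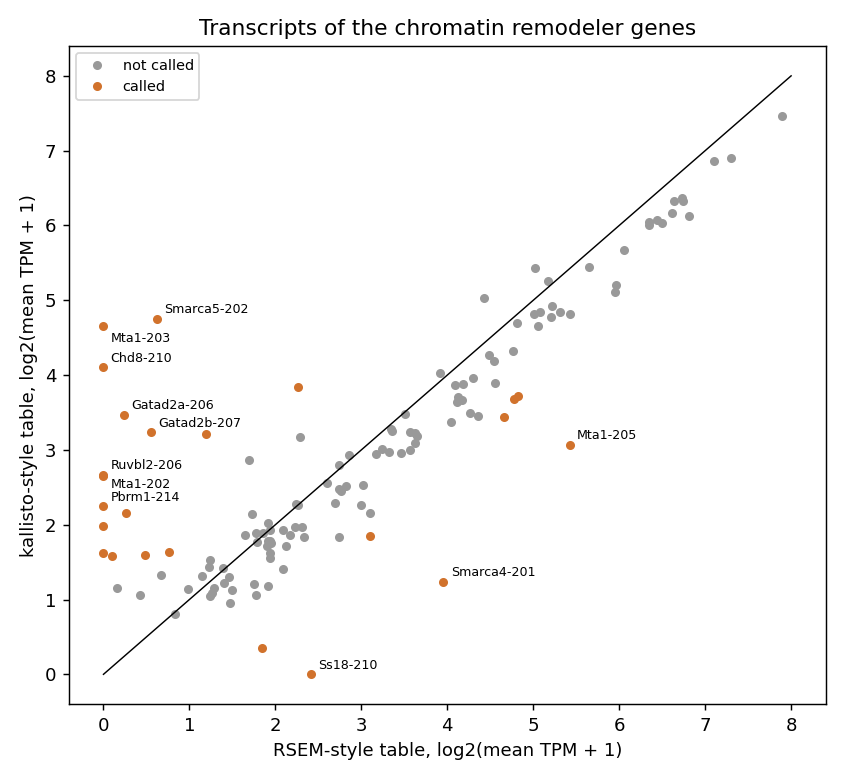
Mean level of 131 member transcripts over 3 libraries, as log2(mean TPM + 1), in the RSEM-style (x axis) and kallisto-style tables (y axis), with the line of equality. The 24 called transcripts are orange, and Mta1-203, Chd8-210 and Smarca5-202 lie far above the line with little or no RSEM-style TPM.

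At the level of genes, 2 of 45 expressed members had a kallisto-style TPM over 1.5 times the RSEM-style one, beside 2.71% of expressed protein-coding genes. Gatad2b stood at 11.5, 10.04 and 11.2 TPM in the kallisto-style tables, 3.27 times its RSEM-style mean, and Chd8 at 29.3, 20.3 and 23.2 TPM, 2.64 times. In 2 others, Chd3 and Chd7, the RSEM-style level was over 1.5 times the kallisto-style one (kallisto-style over RSEM-style 0.610 and 0.646), beside 4.12% of expressed protein-coding genes. The median ratio over expressed members was 0.795, beside 0.806 over expressed protein-coding genes. In 42 of 45 members the main transcript was the same in both tables, beside 87.8% of expressed genes with several transcripts, and the exceptions were Mta1, Chd8 and Gatad2b. For Chd8 and Gatad2b the kallisto-style main transcript was the retained-intron one.

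Most promoter windows of the members were rich in CpG, as were most windows of expressed genes. RefSeq windows on GRCm38.p6 from 250 bases before to 50 bases after a start were found for 37 of the 48 genes, 45 windows in all. The dinucleotide CG was counted on 1 strand, which gives the same count on either. The median was 23 per window, against 7 over 32851 windows of all genes and 21 over 11604 windows of expressed protein-coding genes. At least 15 were held by 84.4% of member windows, 34.6% of all windows and 69.2% of windows of expressed genes. The genes with hardly any transcript were no exception, with 23 in the window of Actl6b beside 21 in that of Actl6a, and 17 in that of Dpf3. Member windows ranged from 1, in a window of Chd9, to 62 in that of Phf10, and the window of Smarcd2 held 4.

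Some values are uncertain by their position. Counts of Chd2, Ruvbl1, Smarca5, Smarce1 and Ss18 were not whole, as when reads are divided between genes. The annotation holds the copies Smarca5-ps, at 12.5 ± 6.03 counts, and Smarce1-ps1, at 1.21 ± 1.05 counts. Exons of 18 members overlap a gene on the opposite strand, and in 10 of them that gene was at 1 TPM or more, such as Gnl3 at 133 ± 5.66 TPM over Pbrm1, Dhx30 at 125 ± 8.83 TPM over Smarcc1 and Mrpl47 at 71.8 ± 1.61 TPM over Actl6a. On the same strand 1810026B05Rik, at 37.1 ± 6.11 TPM, overlaps Chd2. The sources used here name no strand setting, so reads in such overlaps cannot be assigned with certainty. Shares over all genes are not given for divided counts or overlaps, so these numbers do not set the members apart.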

How the data were processed

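Total RNA of 3 libraries was sequenced. The authors deposited, per the file headers, estimated counts per gene and transcript, not normalized, and TPM, on mm10 with GENCODE M21. RSEM-style tables were made from transcriptome alignments and kallisto-style ones from read files; aligner, quantifiers, versions and strandedness: not given in the sources used here. TPM values as deposited are scaled within each library. Rows naming no gene (spike-ins and tRNA numbers; 1.89% ± 0.122 of counts) were left out.

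Counts were rounded and tested with edgeR 4.0.16 (filterByExpr, TMM, quasi-likelihood dispersion against the trended prior) and a chi-square test against Poisson; transcripts were compared with limma 3.58.1 on log2(TPM + 1) where 1 of the tables had TPM of 1 or more in every library, in R 4.3.3. All p-values were adjusted by Benjamini-Hochberg over all genes or transcripts at 0.05. Shares and sequences were computed with Python 3.11.15. Scripts were tested on simulated data. The members, paralog sets and gene lists were chosen with earlier results of these data known. Named are all members, main transcripts of the leading gene of each set, the 5 largest called transcript differences each way, genes called between libraries, and of the 56 matched partner and related genes the 3 highest and those not expressed. Other transcripts, overlapping genes and coding stretches were named after their values were seen. Alternatives included DESeq2 1.42.0 size factors, limma-voom, other thresholds and leaving out each replicate.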

Additional observations from a re-analysis of the deposited data

How the results depend on the processing

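Counts of expressed members (45) stayed within 1.5 times under every alternative run, between 40 and 46. Leaving out 1 replicate gave 0 to 11 members beyond counting noise, 0 being without replicate 1, beside 13 with all libraries. Fewer libraries enter these tests. With kallisto-style counts 19 of 46 members were called, beside 17.6% of all genes. DESeq2 size factors gave 12 of 46, beside 12.3%, and no filter on low counts gave 11 of 48, beside 6.56%. Variable members numbered 0 under edgeR with and without a filter on low counts, DESeq2 size factors, limma-voom, kallisto-style counts and with any replicate left out, with 2 to 5 members at an unadjusted p under 0.05. The 24 called transcripts became 13 with a TPM minimum of 5 and 88 with no minimum difference. With kallisto-style TPM, shares of the leading gene moved by more than 1 SD to 98.3% for Smarca5, 81.7% for Chd4, 86.1% for Mbd3, 89.6% for Gatad2a, 21.3% for Chd7 and 63.8% for Ruvbl2. With protein-coding transcripts alone they moved to 95.8% for Smarca4, 89.9% for Smarcc1, 59.0% for Smarcd2, 56.8% for Phf10, 89.1% for Chd4, 97.7% for Gatad2a, 92.1% for Chd1 and 45.2% for Chd7. Except for Chd7 in the kallisto-style tables, these genes stayed first in their sets. The median over expressed members alone was 39.9 TPM, since genes near 0 were left out. No paired analysis was possible because there is 1 group. With 0 to 3 counts per library, Actl6b and Dpf3 have levels that depth cannot settle, and genes near 1 TPM, such as Chd5 and Ino80d, rest on few counts per kilobase.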
